A study of Homo sapiens with 4 samples.

Results

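The 10 genes described here encode proteins that write, read and anchor constitutive heterochromatin: CBX5, CBX1 and CBX3 (the HP1 proteins), SETDB1, SUV39H2 and TRIM28 (H3K9 methylation), DNMT1 and UHRF1 (maintenance of DNA methylation), and LMNB1 and LBR (the nuclear lamina). They were chosen by name, and their limits were fixed hg19 positions rounded to 10 kb (to 1 kb for TRIM28), so that each gene body spanned 7 to 70 kb and was set against 50 kb on either side. The question was how much of each gene and of its surroundings lay under peaks of H3K9me3, the histone mark of the chromatin in which these proteins act. Its chromatin immunoprecipitation was sequenced in U2OS, an established line from a human osteosarcoma, with 2 input samples that saw no antibody and 2 samples precipitated with an Abcam antibody to H3K9me3. All 4 samples carry the name KRAB-IDR3-TCF3 in their labels, which do not explain it or name an untreated control, and nothing says whether the samples of a group were separate cultures.

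The values came from 2 deposited broad peak lists, called list 1 and list 2 here. The labels of both input samples name list 1 and those of both antibody samples name list 2, but list 1 calls its peaks IP_1 and list 2 calls them IP_2, and no label says whether these are the antibody replicates. Neither list was therefore placed in a group, and no contrast of antibody with input was made. Chromosomes 1 to 22 and X held 326674 peaks in list 1 and 264919 in list 2, which covered 45.0% and 25.2% of the chromosome spans. Most were weak: the authors' fold enrichment had a median of 1.64 in list 1 and 2.12 in list 2, and 0.190% and 2.07% of the peaks had a q-value of 0.05 or less. The lowest deposited −log10 p was 1.02 in list 1 and 1.58 in list 2. List 1 thus reaches down to weaker peaks, and coverage in the 2 lists is not at the same floor. The depth is unknown because the lists give no reads, and as the lists could not be tied to samples, no value below has an error or a test across samples. Peak positions also carry no expression by which the cell line or the activity of a gene could be checked.

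H3K9me3 is laid down by methyltransferases of the SUV39 and SETDB families, and SETDB1 is brought to its targets by TRIM28, which KRAB zinc finger proteins recruit. HP1 proteins bind the mark through their chromodomain and bind one another and the methyltransferases, which lets the mark spread along chromatin. UHRF1 binds H3K9 methylation and newly copied DNA and helps DNMT1 to restore DNA methylation, while lamin B1 and the lamin B receptor hold heterochromatin at the nuclear rim.

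All 10 gene bodies were sparsely covered by peaks in both lists. In list 1 the covered share ran from 0% in TRIM28 to 20.7% in SUV39H2, with a median of 17.4%. In list 2 it ran from 0% in CBX1, CBX3, TRIM28 and DNMT1 to 9.99% in SETDB1, with a median of 2.24%. Tiles of 40 kb along the chromosomes, which stand in for all features because hg19 positions of all genes were not used here, had medians of 48.9% and 21.1%. All 10 bodies lay below these medians in both lists. The lower quartile of 40 kb tiles was 24.3% in list 1 and 6.46% in list 2. Below it lay 10 of 10 bodies in list 1 and 9 of 10 in list 2 (percent of tiles below, 25.0% in each list). SETDB1 in list 2 was the exception. These counts depend on the tile width. Tiles of 100 kb also gave 10 and 9, but tiles of 10 kb gave 5 and 0. The lower quartile of 10 kb tiles was 17.0% in list 1 and 0% in list 2, where no body can lie below it.

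**Figure D1:**
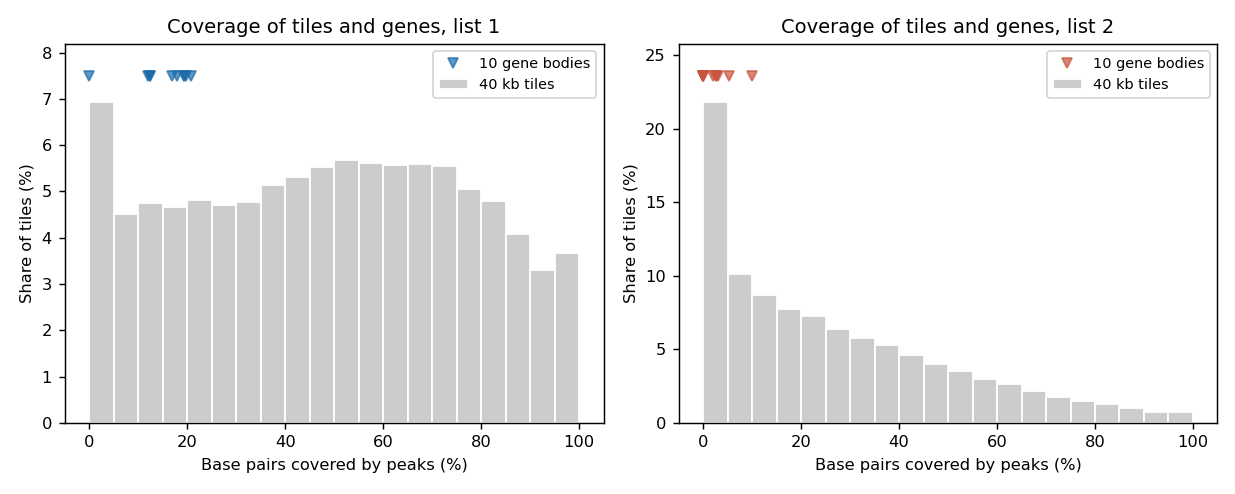
Share of 40 kb tiles (vertical axis, %) by the share of their base pairs covered by peaks (horizontal axis, %), list 1 on the left and list 2 on the right, with the 10 gene bodies as triangles. The triangles stop at 20.7% in list 1 and 9.99% in list 2, left of the medians of the tiles at 48.9% and 21.1%.

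Short regions miss peaks more easily than long ones, so each body was also set against tiles of its own length. In list 1, between 12.3% (UHRF1) and 24.9% (CBX3) of such tiles were covered as little as the gene or less. In list 2 this share was between 5.49% (DNMT1) and 36.1% (TRIM28). The share was 25.0% or less for 10 of 10 genes in list 1 but for 7 of 10 in list 2. Above it in list 2 were SETDB1 (31.9%), CBX3 (29.9%) and TRIM28. The 7 kb of TRIM28 and the 10 kb of CBX3 are short enough for a lack of peaks to be common in list 2, at 36.1% and 29.9% of tiles, whereas 5.49% of 70 kb tiles lacked a peak as DNMT1 did. Tiles include genes and gene-free sequence alike, and whether other genes are covered as little was not tested.

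Promoter sequences are shown for the HP1 genes, whose surroundings differ in coverage, for SETDB1 and for LBR. SETDB1 held the highest fold among the 8 list 2 peaks in the 10 bodies. LBR was the gene most covered around its start in list 1. Of the 10 genes 9 were found in the RefSeq promoter table of GRCh38.p14, and TRIM28 was not. The sequences are the 250 bases before the most upstream listed start, 5′ to 3′, with each CG dinucleotide in capitals. Their positions are on GRCh38.p14 and do not belong with the hg19 positions of the peaks.

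CBX5, chr12:54280123-54280372 on the minus strand: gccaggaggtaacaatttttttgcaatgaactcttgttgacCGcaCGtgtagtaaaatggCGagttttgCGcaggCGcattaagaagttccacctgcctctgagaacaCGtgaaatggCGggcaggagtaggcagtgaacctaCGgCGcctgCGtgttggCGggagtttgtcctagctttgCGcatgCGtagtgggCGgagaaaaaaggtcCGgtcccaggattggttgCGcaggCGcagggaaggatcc
CBX1, chr17:48101187-48101436 on the minus strand: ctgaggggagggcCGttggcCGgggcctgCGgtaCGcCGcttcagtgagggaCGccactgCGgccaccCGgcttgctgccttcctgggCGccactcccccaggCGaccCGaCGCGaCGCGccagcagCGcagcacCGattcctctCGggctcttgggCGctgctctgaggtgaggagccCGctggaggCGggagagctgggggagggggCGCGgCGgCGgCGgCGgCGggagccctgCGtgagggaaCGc
CBX3, chr7:26201193-26201442 on the plus strand: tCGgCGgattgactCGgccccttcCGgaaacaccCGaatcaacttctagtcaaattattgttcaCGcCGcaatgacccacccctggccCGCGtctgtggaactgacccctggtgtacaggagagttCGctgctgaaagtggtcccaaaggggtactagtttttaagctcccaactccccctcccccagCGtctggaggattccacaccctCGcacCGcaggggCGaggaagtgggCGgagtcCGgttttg
SETDB1, chr1:150926013-150926262 on the plus strand: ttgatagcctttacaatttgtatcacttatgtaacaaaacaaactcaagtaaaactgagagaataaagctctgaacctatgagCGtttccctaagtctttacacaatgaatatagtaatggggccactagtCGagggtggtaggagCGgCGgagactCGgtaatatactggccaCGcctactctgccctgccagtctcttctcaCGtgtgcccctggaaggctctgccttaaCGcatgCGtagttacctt
LBR, chr1:225428822-225429071 on the minus strand: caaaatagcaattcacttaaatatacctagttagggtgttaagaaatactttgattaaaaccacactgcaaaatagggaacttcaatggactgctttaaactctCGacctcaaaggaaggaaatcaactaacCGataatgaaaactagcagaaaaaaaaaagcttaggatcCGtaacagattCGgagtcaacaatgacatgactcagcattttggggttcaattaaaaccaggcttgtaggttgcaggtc

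A CG dinucleotide, which reads the same on both strands, occurred 30 times in the CBX1 sequence, 17 times in CBX5 and 16 times in CBX3. It occurred 9 times in SETDB1 and 4 times in LBR, the fewest of the 9 genes, and 38 times in SUV39H2, the most. The median was 17 over the 9 genes, beside 11 (quartiles 3 and 23) over the 35116 promoters of the table, 93.9% of which held at least 1. The 2 medians are from unlike sets, since the table counts every listed start of a gene and each of the 9 genes gave only its most upstream one. CpG-rich promoters are usually free of DNA methylation, and these counts describe sequence alone.

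The HP1 genes shared low coverage but differed in their surroundings. CBX5, which encodes HP1α, lies at chr12:54620001-54670000 and was covered 19.7% in list 1 by 10 peaks and 2.69% in list 2 by 1 peak. Its flanks were covered less than the body in list 1, at 12.2%, and about as little in list 2, at 2.60%. The single list 2 peak, chr12:54635523-54636866, had a fold of 2.47 and a q of 0.138, and it overlapped a list 1 peak of 3422 bp with a fold of 1.54. On its low-coordinate side list 2 had no peak over 168 kb, from 54467783 to 54635522. SMUG1 and HOXC4 are the nearest protein-coding genes on that side in the gene order of GRCh38.p14, and HNRNPA1, which encodes an RNA-binding protein, is the nearest on the other.

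CBX1, the gene of HP1β at chr17:46150001-46180000, was covered 12.4% in list 1 by 2 peaks and had no peak in list 2. Its list 2 gap was 94.1 kb long, from 46086098 to 46180195, and took in the whole body. The flanks were uneven, with 3.55% on the low side and 25.9% on the high side in list 1, and 0% and 14.5% in list 2. Within the high flank the step from 30 to 40 kb was the most covered in both lists, at 57.0% and 38.4%, and steps further out reached 82.7% in list 1. SNX11 and SKAP1 are the next genes on that side.

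CBX3, the gene of HP1γ at chr7:26240001-26250000, lacked list 2 peaks, in a region that was densely covered from about 60 kb away on its low side and nearer on its high side. The body was covered 16.8% in list 1, by 2 peaks that both had the lowest fold of the list, 1.44, and 0% in list 2. Its flanks were covered 36.2% and 14.8%, less than the medians of 40 kb tiles. They were uneven, with 23.2% and 5.30% on the low side against 49.2% and 24.3% on the high side, where the step from 20 to 30 kb reached 83.0% and 60.0%. On the low side the step from 60 to 70 kb was the first above 60% in list 1, at 97.5%, and it was covered 81.2% in list 2. The list 2 gap that holds the body was 13.9 kb long. Of the 10 genes CBX3 had the largest difference between body and flanks, -19.4 percentage points in list 1 and -14.8 in list 2. HNRNPA2B1, the neighbour of CBX3 on its low side, is known to share a CpG-rich promoter region with it.

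Among the genes of H3K9 methylation, SETDB1 was the one with a peak past q 0.05. SETDB1, a methyltransferase that adds H3K9me3 at retroelements and zinc finger genes, lies at chr1:150900001-150940000 and was covered 19.4% in list 1 and 9.99% in list 2. Nearly all of the list 2 coverage was shared with list 1, as 9.09% of the body lay under peaks of both lists. The list 2 peak, chr1:150901856-150905850, had a fold of 2.99 and a q of 0.0355, and the overlapping list 1 peak, chr1:150900421-150905492, had a fold of 2.37 and a q of 0.156. Both lay in the first 6 kb of the body, on the side where transcription starts, and list 2 had no further peak for 55.6 kb.

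The low flank of SETDB1 was covered more than its body, at 39.2% in list 1 and 26.8% in list 2. The step from 10 to 20 kb away reached 79.3% and 80.3%. CTXND2 and ARNT are the next protein-coding genes on that side. SETDB1 was the exception at larger scale, since its flanks of 500 kb were covered no more than the body, at 19% in list 1 and 6.71% in list 2.

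SUV39H2, a methyltransferase of pericentromeric H3K9me3, lies at chr10:14920001-14950000 and bordered a broad peak. Its body was covered 20.7% in list 1 by 6 peaks and 5.22% in list 2 by 3 peaks. A peak of 13.2 kb in list 1, chr10:14952872-14966073, and one of 11.9 kb in list 2, chr10:14954492-14966428, began 2.87 kb and 4.49 kb past the high limit. Their folds were 2.54 and 3.28 and their q-values 0.0944 and 0.0127. The high flank was covered 38.0% and 26.6%, against 15.9% and 1.66% on the low side. DCLRE1C, a gene of DNA end processing, overlaps SUV39H2 in the gene order of GRCh38.p14, and MEIG1 follows it.

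TRIM28, the corepressor that joins KRAB zinc finger proteins to SETDB1, was the 1 gene of the 10 without a body peak in list 1. It is also the shortest, and 15.0% of 7 kb tiles in list 1 and 36.1% in list 2 held no peak either. Its body at chr19:59055001-59062000 held no peak in either list. The peak-free stretch around it was 72.4 kb long in list 1 and 69.8 kb in list 2, and the flanks of 50 kb were covered 1.15% and 1.17%. Flanks of 500 kb, which on the high side end after 50.3 kb with the last peak of the chromosome, were covered 55.6% and 49.3%. Flanks of 200 kb, cut short in the same way, were covered 15.1% and 6.22%. Chromosome 19 as a whole was covered 39.1% and 26.2%. TRIM28 thus lay in a sparse stretch, and the dense coverage lay mainly more than 200 kb away on the low side. ZBTB45 and SLC27A5 are its neighbours on the low side, and CHMP2A and UBE2M on the high side.

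The genes of DNA methylation maintenance were covered more than their 50 kb flanks in list 1, though less than flanks of 200 kb, and hardly at all in list 2. DNMT1, the maintenance DNA methyltransferase at chr19:10240001-10310000, held 9 peaks in list 1, which covered 17.9% of the body against 10.1% of the flanks. List 2 had no peak in the body or in either flank, within a gap of 215 kb from 10185506 to 10400103. One list 1 peak of DNMT1 had the highest fold of all those in the 10 bodies, 2.81 with a q of 0.0689, and it was 290 bp wide. The calls of the lists thus differed over DNMT1, where 0% of the body lay under peaks of both.

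UHRF1, which reads hemimethylated DNA and H3K9 methylation, lies at chr19:4910001-4960000 and was covered 11.9% in list 1 by 2 peaks and 1.95% in list 2 by 1. Its flanks were covered 4.77% and 2.26%. The list 2 peak, chr19:4924773-4925748, had a fold of 2.45 and a q of 0.141, and it lay within a list 1 peak of 5164 bp with a fold of 1.69. ARRDC5 overlaps UHRF1, and KDM4B, which encodes a demethylase that removes H3K9me3, is its neighbour on the high side.

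Both lamina genes held 1 narrow peak of list 2 and several peaks of list 1. LMNB1, the gene of lamin B1 at chr5:126110001-126170000, was covered 19.4% in list 1 by 6 peaks and 2.54% in list 2 by 1 peak with a fold of 2.27. Its flanks were covered 16.2% and 10.3%, and in list 2 the low flank, at 17.3%, held most of it. LBR, the lamin B receptor at chr1:225590001-225620000, was covered 12.3% in list 1 by 4 peaks and 2.94% in list 2 by 1, against flanks of 19.9% and 5.58%. The LBR peaks nearest its start, chr1:225618538-225623863 in list 1 with a fold of 1.84 and chr1:225618652-225619532 in list 2 with a fold of 1.98, lay at the high limit of the body.

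Peaks inside the bodies were narrow, and mostly weak in list 1. The 10 bodies held 45 peaks of list 1, with a median width of 794 bp against 1973 bp over the whole list and a median fold of 1.58 against 1.64. Of the 45 peaks 10 (22.2%) had the lowest fold that the list contains, beside 18.1% of all its peaks. A q of 0.05 was reached by 0 of the 45, beside 0.190% of all list 1 peaks, so this count is not particular to the bodies. In list 2 there were 8 peaks, with a median width of 974 bp against 1564 bp and a median fold of 2.32 against 2.12. Of these 8, 1 was past a q of 0.05, that of SETDB1, beside 2.07% of all list 2 peaks. In each list 6 of these peaks overlapped a peak of the other list, 13.3% of the list 1 peaks in the bodies and 75% of the list 2 peaks. Over the whole lists these shares were 50.8% and 90.1%, and 22% and 81.3% for peaks under the median width of their list. These are counts of peaks and differences between lists, not a test.

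**Figure D2:**
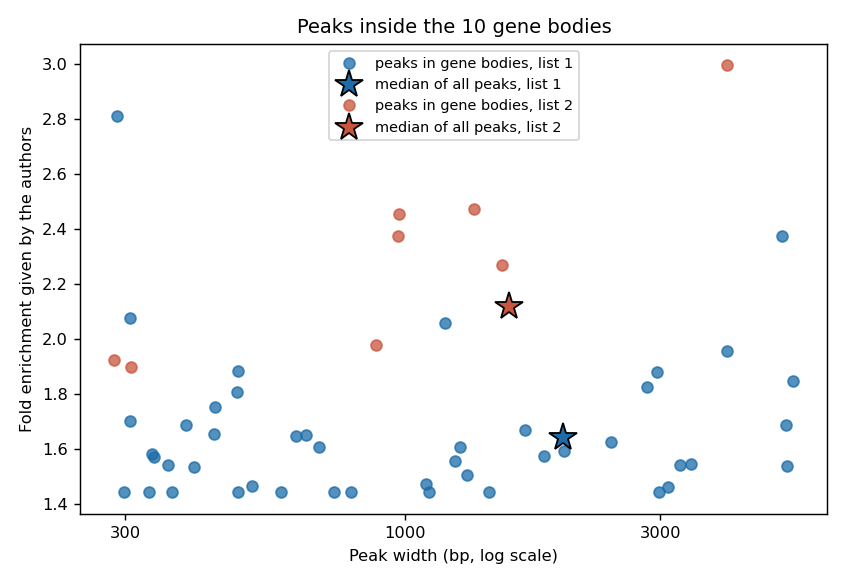
Fold enrichment given by the authors (vertical axis) against width (horizontal axis, bp on a log scale) for the 45 list 1 peaks and 8 list 2 peaks that touch a gene body, with stars at the medians of all peaks in each list. The list 2 peak of SETDB1 stands highest at 2.99, and most points lie left of the star of their list.

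Bodies were not set off sharply from their own flanks. The median of body minus flanks was -1.72 percentage points in list 1 and -4.93 in list 2. Bodies were lower than their flanks by at least 10 points in 2 of 10 genes in list 1, CBX3 and SETDB1, and in 1 of 10 in list 2, CBX3. Tiles of 40 kb met the same limit in 25.2% of cases in list 1 and 21.1% in list 2, so that the genes' counts were no higher than the background. By any amount, 6 of 10 genes were lower in list 1 and 8 of 10 in list 2 (percent of tiles, 49.8% and 52.5%), and 0 genes were higher by at least 10 points in either list (25.2% and 21.0%). CBX5, DNMT1, UHRF1 and LMNB1 were covered more than their 50 kb flanks in list 1, by 7.43, 7.83, 7.15 and 3.24 points. These directions turned at some other settings and held at others. With flanks of 200 kb the values were -5.82 for DNMT1, -3.95 for UHRF1 and -17.2 for LMNB1, while CBX5 stayed above 0 at 0.465. With flanks of 500 kb all 4 were below 0. Among peaks above the median fold CBX5 was at -7.93 and LMNB1 at -6.99, while DNMT1 was at 14.0 and UHRF1 at 7.62. With flanks of 20 kb the list 1 median turned to 2.13, and the limits of the genes are rounded, so no direction is given for list 1.

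The low coverage reached past the genes. Over both sides of all 10 genes, the median coverage of 10 kb steps was between 3.34% and 16.1% in list 1 and between 0% and 0.82% in list 2 up to 50 kb from the body. From 50 to 200 kb away these medians were between 14.5% and 35.1% in list 1 and between 0% and 14.3% in list 2, with no steady rise. Tiles of 10 kb had medians of 48.0% and 16.8%, so the step medians stayed below those of tiles out to 200 kb. In list 2, 29.9% of such tiles held no peak. Flanks of 50, 200 and 500 kb had medians of 15.5%, 24.0% and 39.4% in list 1 and of 6.4%, 8.69% and 21.3% in list 2. Against flanks of 200 kb, bodies were at least 10 points lower in 6 of 10 genes in list 1 and 4 of 10 in list 2 (percent of tiles, 27.7% and 23.4%). Against flanks of 500 kb, a width added after the data had been seen, the counts were 7 and 8 of 10 (percent of tiles, 29.9% and 26.5%). These shares are over all tiles, not over tiles covered as little as the genes. Sparse bodies fall below average surroundings more easily, so the counts cannot tell a local contrast from the low coverage of the bodies. The median differences with flanks of 500 kb were -23.4 points in list 1 and -18.5 points in list 2.

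The 10 genes fell into different settings at that scale. CBX3 and TRIM28 lay in 500 kb flanks covered more than their chromosome, at 69.3% against 48.9% and 55.6% against 39.1% in list 1, and at 42% against 27.4% and 49.3% against 26.2% in list 2. The other 8 lay in flanks covered less than their chromosome in both lists. How many tiles have such flanks was not counted, so this count has no background beside it. SUV39H2, at 51.8% and 31.5%, and LMNB1, at 47.1% and 24.3%, were the next most covered in list 1, and in list 2 the order among them was the same. UHRF1 (17.6% and 8.14%), SETDB1 (19% and 6.71%) and DNMT1 (22.6% and 12.6%) lay in the barest flanks. U2OS cells carry an uneven DNA copy number, for which nothing was corrected.

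**Figure D3:**
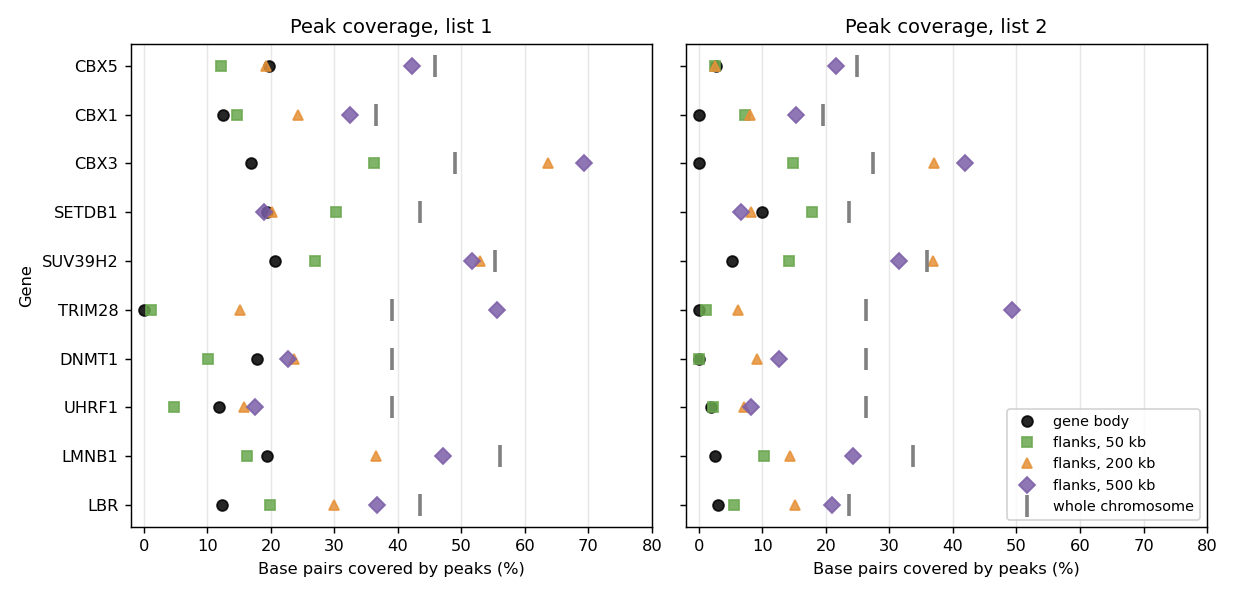
Base pairs covered by peaks (horizontal axis, %) in each gene body, in its flanks of 50, 200 and 500 kb on both sides summed, and in its whole chromosome, for list 1 (left) and list 2 (right). The diamonds of the 500 kb flanks lie right of the black body points for 9 of 10 genes in each list, with SETDB1 as the exception. The share of tiles covered less than their own 500 kb flanks by any amount was not counted.

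The start of the genes was not consistently barer than their far end. Strand was taken from the promoter table for 9 genes, and windows of 20 kb were centred on the limits of the bodies because the limits are rounded. Coverage at the start had a median of 11.7% in list 1 and 3.68% in list 2, and coverage at the far end one of 17.4% and 0%. The start was lower in 5 of 9 genes in list 1 and in 2 of 9 in list 2, where 2 genes had 0% at both ends. LBR was covered most around its start in list 1, at 36.0%, and SETDB1 in list 2, at 20.0%. DNMT1, UHRF1 and LMNB1 had no list 2 peak within the window at their start, and SUV39H2, with 50.4% and 33.9% at its far end, had the most covered far end in both lists.

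Other genes of the same pathways were also mostly sparse, with exceptions that were densely covered. The list held 16 genes, placed on hg19 from general knowledge of the assembly and rounded to 10 kb. Their bodies had a median coverage of 10.8% in list 1 and 1.14% in list 2. Of the 16 bodies, 13 and 12 lay below the lower quartile of 40 kb tiles. ATF7IP, a partner that stabilises SETDB1, was covered 80.3% and 65.5%, in flanks of 97.1% and 78.6%. EHMT1, a methyltransferase of H3K9 mono- and dimethylation, was covered 73.1% and 50%. In list 2, 6 of the 16 had no peak (percent of 40 kb tiles, 10.3%), among them MPHOSPH8, a chromodomain reader of H3K9me3 (0.695% in list 1), and LMNB2, the gene of lamin B2 (1.29% in list 1). KDM4B, part of which lies in the high flank of UHRF1, was covered 14.2% and 7.53%.

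These 16 genes stood lower against their flanks than the 10 genes did, by count. They were at least 10 points lower than their 50 kb flanks in 12 of 16 cases in list 1 and 6 of 16 in list 2, against 2 and 1 of 10 and against 25.2% and 21.1% of tiles, and the median difference was -16.7 and -7.81 points. The difference between the sets was not tested, because the lists are tied to no samples and genes are not replicates of a condition.

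**Figure D4:**
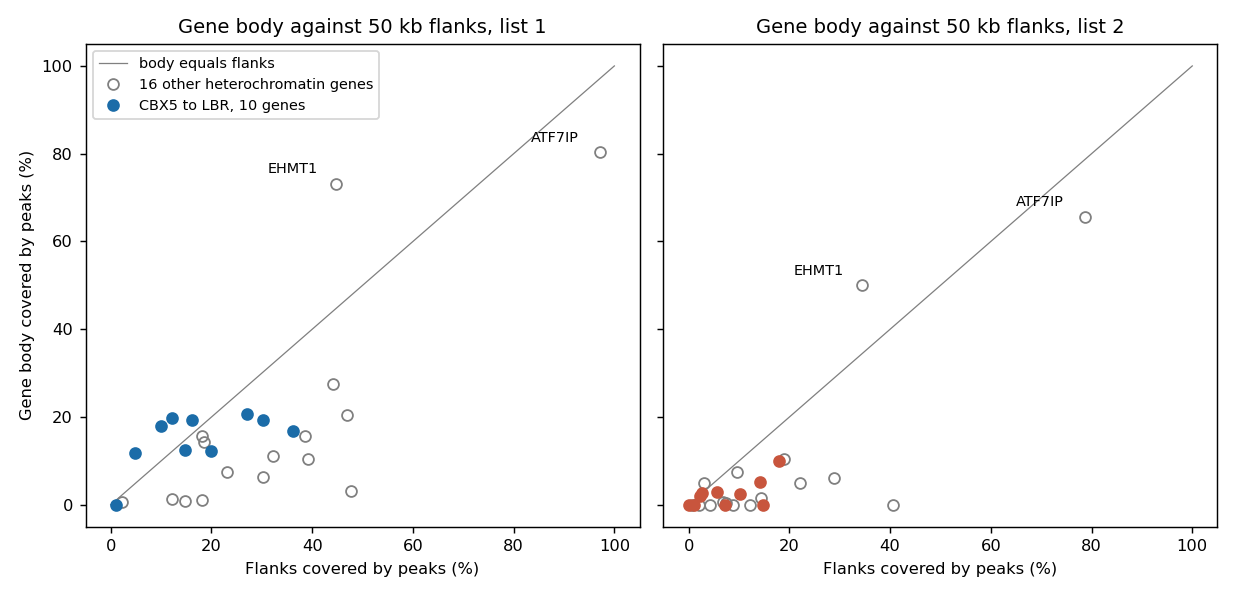
Coverage of the gene body (vertical axis, %) against that of its 50 kb flanks (horizontal axis, %) for the 10 genes (filled) and 16 other heterochromatin genes (open), list 1 on the left and list 2 on the right. The 10 genes stay at or under 20.7% of body coverage and lie on both sides of the diagonal in list 1, while ATF7IP and EHMT1 stand far above them.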

How the data were processed

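H3K9me3 immunoprecipitation and input libraries of U2OS cells were sequenced, and 2 broad peak lists on hg19 were deposited. MACS2 2.2.7.1, Bowtie2 2.5.0, Trim Galore 0.6.7 and bcl2fastq 2.17 are named, per the submitters' processing notes, with no role or order. Their cutoff, control, duplicate handling and pooling were not given in the sources used here. Each peak has a deposited fold, a ratio over the peak caller's background, and its deposited −log10 p and −log10 q are the authors' values.

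Covered base pairs were summed on chromosomes 1 to 22 and X, with positions counted from 1. A peak was counted in a body from an overlap of 1 bp. The chromosome span was taken to end at the last peak. Tiles of 40 kb with their own flanks were laid end to end, leaving out those that touch a stretch of at least 1 Mb without a peak in both lists. There was no test, since no list could be tied to a sample. The coverage step was tested on simulated peaks. Alternatives changed the cutoff, overlap, flanks, gene limits, weight and tile width. The members, lists and alternatives were chosen with earlier results of these data known. Named genes were all 10, then of the 16 others the 2 most and 2 least covered in the lower of the lists (6 tied at 0%, ordered by list 1 after their values were seen), and any in a flank of the 10. RefSeq tables on GRCh38.p14 gave promoter sequences, strands and neighbour names, and all 10 genes matched the gene table. Genes of similar pattern were not sought, as hg19 positions of all genes were not used here. Versions were matplotlib 3.10.9, scipy 1.17.1, pandas 2.3.3, numpy 2.4.6 and Python 3.11.15.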

Additional observations from a re-analysis of the deposited data

How the results depend on the processing

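The count of genes at least 10 points below their flanks, 2 in list 1 and 1 in list 2, moved under most choices. In list 1 it was 6 for any difference, 0 for 20 points, 1 above the median fold, 0 at −log10 q of at least 2, 1 for base pairs in both lists, 6 with flanks of 200 kb, 7 with 500 kb and 4 when weighted by fold. In list 2 it was 8 for any difference, 0 for 20 points, 2 above the median fold, 0 at −log10 q of at least 2, 3 with flanks of 20 kb, 4 with 200 kb, 8 with 500 kb, 4 with bodies widened by 5 kb, 2 with flanks 10 kb away and 5 when weighted by fold. Weighting multiplies covered base pairs by their fold, which is at least 1.44 in list 1 and 1.90 in list 2. The weighted differences are therefore not percentage points, and the same limit of 10 is met more easily. The list 1 median turned to 2.13 points with flanks of 20 kb and moved to -13.5 with 200 kb and -23.4 with 500 kb, and the list 2 median moved to -18.5 with 500 kb. With flanks of 500 kb, SETDB1 turned from -10.9 to 0.38 points in list 1 and from -7.86 to 3.28 in list 2, and in list 1 CBX5 turned to -22.6, LMNB1 to -27.7, DNMT1 to -4.75 and UHRF1 to -5.67. Wider flanks take in other sequence by construction, and otherwise the cause was not tested. Tiles of 10 kb met the 10-point limit in 32.7% and 29.6% of cases and tiles of 100 kb in 22% and 18.3%. Among list 1 peaks at or above the weakest −log10 p found in list 2, the median body coverage was 0% and the highest 12.7%, and at −log10 q of at least 2 no body of either list was covered. Flanks of 500 kb were added once the values had been seen. No paired analysis was possible because no list belongs to a single sample. Unknown depth and weak peaks limit every value.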

Other observations

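The nearest broad peak, at least 10 kb wide, was outside the body for every one of the 10 genes in both lists. The median 40 kb tile held no such peak in either list, and the share of tiles without one was not counted. In list 1 the distance to the nearest broad peak ran from 2.87 kb for SUV39H2 to 721 kb for SETDB1, with a median of 121 kb over the genes, beside 7.90 kb over 40 kb tiles. In list 2 it ran from 4.49 kb for SUV39H2 to 1069 kb for SETDB1, with a median of 218 kb beside 175 kb over tiles. CBX3 had such peaks 59.7 kb away in list 1 and 52.8 kb away in list 2, and UHRF1 244 kb and 1054 kb away.

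Peaks with a q at or under 0.05 are rare, and the genes' distances to them were of the order of those of tiles. In list 2 such a peak lay inside SETDB1, 4.49 kb from SUV39H2, 87.2 kb from UHRF1 (fold 3.42) and 135 kb from CBX1 (fold 3.53), and the median over the genes was 274 kb beside 250.3 kb over tiles. In list 1 the distances ran from 292 kb for DNMT1 to 6505 kb for TRIM28, with a median of 2145 kb beside 3274 kb over tiles. The distances over tiles include tiles that hold such a peak, at 0 kb.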
